A study of Homo sapiens with 18 samples.

Results

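Oxidative phosphorylation in human cells rests on enzyme complexes of the inner mitochondrial membrane, and the genes described here are the nuclear genes for their subunits. They were found by name: protein-coding genes of GENCODE release 44 whose symbols begin with NDUFA, NDUFB, NDUFC, NDUFS or NDUFV and a digit, with UQCR, with COX4 to COX8, or with ATP5F, ATP5M or ATP5P. The names gave 84 genes, 39 for complex I, 9 for complex III, 17 for complex IV and 19 for complex V. They were part of 60617 genes in the Illumina files, 19892 of them protein-coding, and of 58676 genes in the long-read files. All 84 were listed in all 18 files. The names leave out complex II, cytochrome c1 and the mitochondrial genome, which are given separately, and they place NDUFA4 in complex I although its protein is known to sit in complex IV.

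The RNA came from HCC827 and H1975, established human lung adenocarcinoma cell lines that both carry activating mutations of the receptor kinase EGFR. Neither line was treated. Each line gave 3 RNA samples, and each of the 6 samples was sequenced with Oxford Nanopore (ONT) cDNA long reads, PacBio Iso-Seq long reads and Illumina short reads, which makes 18 libraries in 6 groups of 3. The labels call the samples independent without saying whether they came from separate cultures, so p values measure the spread between these samples. Each line is a single cell population grown in culture, and in bulk RNA a lower level in every cell and fewer cells with the transcript cannot be told apart.

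Complex I (NADH dehydrogenase) takes electrons from NADH and passes them to ubiquinone. Complex III (the cytochrome bc1 complex) passes them on to cytochrome c, and complex IV (cytochrome c oxidase) to oxygen. These complexes pump protons across the membrane, and complex V (ATP synthase) lets them flow back through a rotor that drives ATP formation. Most subunits are encoded in the nucleus, and the mitochondrial genome supplies the rest. Several complex IV subunits exist as a widely expressed form and a form known from heart, muscle, lung or testis.

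An ONT library held 81467393 to 116497461 counts on genes, and a PacBio library 37795 to 54339. Illumina libraries held 33362018 to 40200473, except for HCC827 replicate 2, with 10020699. Some PacBio libraries were closer to each other than independent read counts would be. A chi-square comparison of their counts averaged 0.671 per gene for HCC827 replicates 1 and 2 and 0.539 for H1975 replicates 2 and 3. The other pairs averaged 4.09 and 4.56 in HCC827 and 1.30 and 1.50 in H1975. PacBio counts are of clustered sequences, so these values cannot show whether the close libraries are separate. Each close pair was counted as 1 sample as a precaution, which left 2 PacBio samples per line. HCC827 had higher levels of all 6 epithelial markers and all 4 lung markers than H1975 on Illumina (edgeR, adjusted p below 0.05), and the lung markers summed to 291 to 393 CPM (counts scaled by effective library size) in HCC827 and 26.2 to 30.1 CPM in H1975. The 4 fibroblast markers summed to 10.5 to 15.7 CPM in HCC827 and 279 to 313 CPM in H1975. COL1A1, the only 1 of the 4 with enough counts to test, carried that sum, with 876 Illumina counts in HCC827 and 36661 in H1975, while DCN had 5 in HCC827 and 3 in H1975, LUM had 16 in HCC827 and 24 in H1975, and PDGFRA had 4 in HCC827 and 10 in H1975. The part of these differences in the results below was not tested.

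Promoters of 66 of the 84 genes were found in a RefSeq table (GRCh38.p14), with 250 bases before and 50 bases after each start. Motifs of transcription factors known for mitochondrial genes were searched on both strands. The NRF1 motif, GCGCA and GCGC with any base between them, was in 15 of the 66 (22.7%), against 6.28% of all 27305 promoters. The YY1 motif AAGATGGC was in 10 (15.2%, against 3.03%), and the ETS motif CCGGAAGT, which GABPA binds, was in 9 (13.6%, against 4.44%). The sequence TATAAA was in 7 (10.6%, against 12.0%). These motifs differ in their letters, and a promoter could hold several. The 5 sequences below are the 250 bases before the start, 5′ to 3′ on the gene's strand, with the NRF1 or ETS motif in capitals. They belong to the genes with the largest line differences of their complex whose window held one of these motifs.
NDUFA9: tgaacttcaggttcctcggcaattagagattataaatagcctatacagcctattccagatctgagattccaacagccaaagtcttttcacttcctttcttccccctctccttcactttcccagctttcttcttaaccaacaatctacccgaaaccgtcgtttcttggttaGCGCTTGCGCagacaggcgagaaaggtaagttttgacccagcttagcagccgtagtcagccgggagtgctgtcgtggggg
UQCRH: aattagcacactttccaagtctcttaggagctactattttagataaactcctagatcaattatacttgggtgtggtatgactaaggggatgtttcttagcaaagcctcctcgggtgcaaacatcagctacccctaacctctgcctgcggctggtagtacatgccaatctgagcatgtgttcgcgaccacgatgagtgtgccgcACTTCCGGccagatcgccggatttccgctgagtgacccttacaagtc
UQCRQ: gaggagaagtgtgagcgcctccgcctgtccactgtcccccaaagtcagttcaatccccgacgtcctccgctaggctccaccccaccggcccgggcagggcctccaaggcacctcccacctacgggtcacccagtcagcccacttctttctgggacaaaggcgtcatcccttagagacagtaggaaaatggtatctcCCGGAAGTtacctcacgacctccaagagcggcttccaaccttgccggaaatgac
COX5B: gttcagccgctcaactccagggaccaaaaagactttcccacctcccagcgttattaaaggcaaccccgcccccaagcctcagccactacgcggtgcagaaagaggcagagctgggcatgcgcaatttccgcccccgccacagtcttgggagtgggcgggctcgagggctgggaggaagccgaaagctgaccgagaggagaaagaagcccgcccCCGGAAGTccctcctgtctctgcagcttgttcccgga
COX8C: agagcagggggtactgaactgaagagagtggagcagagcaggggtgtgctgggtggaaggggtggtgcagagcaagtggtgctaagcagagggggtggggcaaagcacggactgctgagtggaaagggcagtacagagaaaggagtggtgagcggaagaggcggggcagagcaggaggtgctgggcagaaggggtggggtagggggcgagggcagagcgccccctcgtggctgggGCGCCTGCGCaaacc

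All 5 lie on the plus strand. NDUFA9 is at chr12:4648864-4649113 with the NRF1 motif starting at position -80 from the RefSeq start, and COX8C is at chr14:93346932-93347181 with the motif at -15. UQCRH (chr1:46303448-46303697) has its ETS motif at -47, UQCRQ (chr5:132866392-132866641) at -54 and COX5B (chr2:97645812-97646061) at -37. Of the windows, 19 bases of NDUFA9 and 12 bases of UQCRQ lie in exons annotated by GENCODE. A match describes these letters and is not a binding site. Members with the NRF1 motif had a median log2 fold between the lines of 0.50 on Illumina, and those without it 0.50, and the ONT medians were 0.16 with the motif and 0.23 without it.

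Between the lines, most of these genes were higher in HCC827 on Illumina. Of 80 genes with enough counts to test, 65 passed (edgeR quasi-likelihood test, Benjamini-Hochberg adjusted p below 0.05), 52 higher and 13 lower in HCC827. Of all 25711 genes tested, 74.1% passed, 36.1% higher and 38% lower, so the share that passed is near the background and the split is not. The median log2 fold of HCC827 over H1975 was 0.48 for the members and -0.04 for all genes. On ONT 47 of 81 tested members passed, 30 higher and 17 lower, with a median of 0.18. With 1 library left out, 20 to 42 members were higher and 14 to 18 lower on ONT, and the median was 0.09 without HCC827 replicate 3 and 0.27 without HCC827 replicate 2. There 62.7% of all 27366 genes passed, 31.1% higher and 31.6% lower, with a median of -0.02. Both platforms called 43 members of the 80 tested on both: 29 were higher on both, against 27.6% of all genes tested on both, and 13 lower on both, against 27.9%. The remaining member, NDUFV3, had opposite signs, against 1.14% of all genes.

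**Figure D1:**
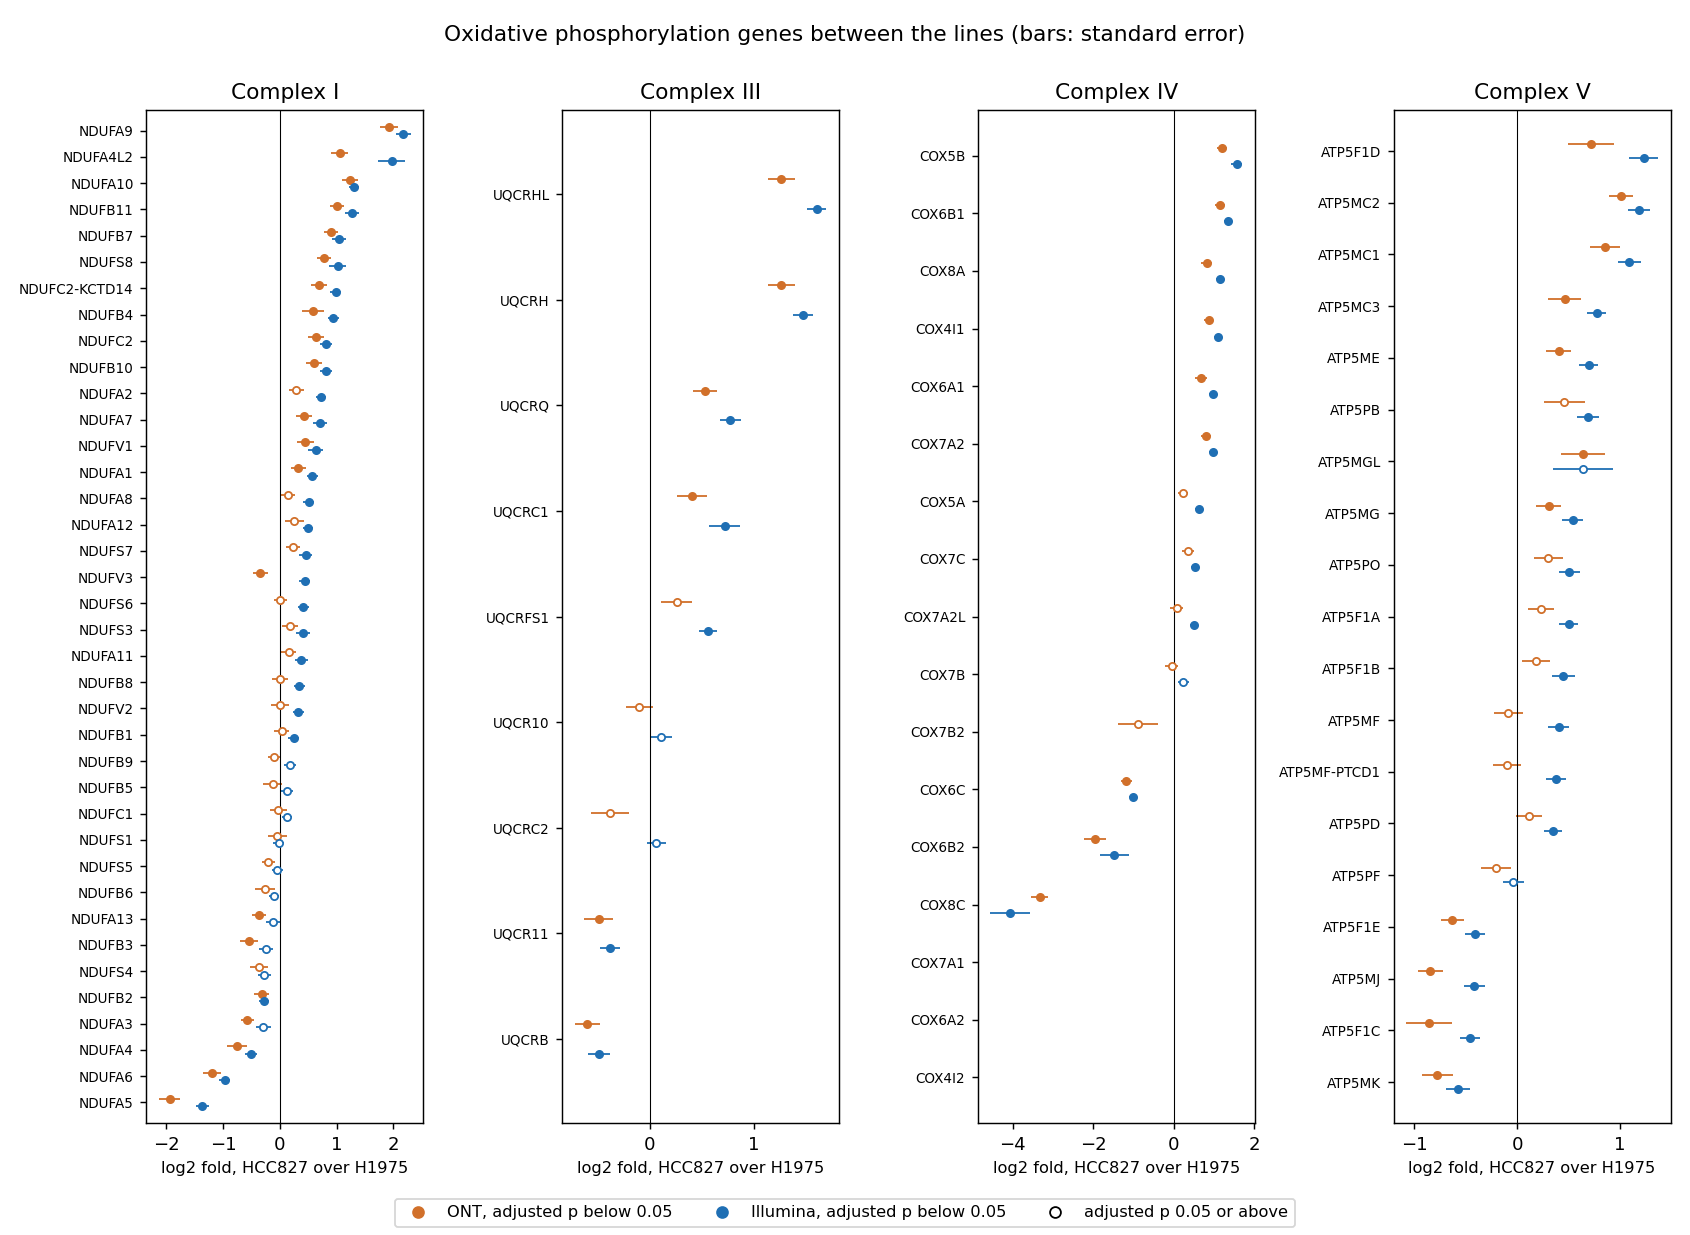
The log2 fold of HCC827 over H1975 (horizontal axis) of members by complex, on ONT (orange) and Illumina (blue); bars are standard errors, filled points have an edgeR adjusted p below 0.05, and genes without a point had too few counts. Illumina points lie to the right of ONT points in 79 of 80 genes, and the 13 genes called lower on Illumina sit to the left of 0 on ONT too.

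These directions depend on how libraries are scaled, and the lines differed in composition. The 100 most counted genes held 23.1% to 25.8% of Illumina counts in HCC827 and 17.2% to 17.3% in H1975, and 29.9% to 30.7% of ONT counts in HCC827 and 24.3% to 24.6% in H1975. Scaled by library totals instead of by the trimmed mean, the median of all genes moved by -0.35 on Illumina and -0.55 on ONT. The members then split into 30 higher and 23 lower on Illumina and into 14 higher and 49 lower on ONT. Relative to the median of all genes the members stood at 0.51 on Illumina and 0.20 on ONT, and at 0.50 and 0.19 by library totals. The raw share of counts shows the same dependence. On Illumina the members took 0.545%, 0.577% and 0.591% of gene counts in HCC827 and 0.513%, 0.501% and 0.503% in H1975. On ONT they took 1.26%, 1.23% and 1.27% in HCC827 and 1.62%, 1.56% and 1.56% in H1975. The lines did not overlap on either platform, with HCC827 above H1975 on Illumina and below it on ONT.

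Summed over its members, each complex had a higher level in HCC827 on Illumina. Complex I summed to 2379 ± 269 CPM in HCC827 and 1729 ± 35.2 CPM in H1975 (mean ± SD, n = 3 each), a log2 ratio of 0.46. Complex III gave 756 ± 66.5 CPM in HCC827 and 532 ± 17.3 CPM in H1975 (0.51). Complex IV gave 1168 ± 93.7 CPM in HCC827 and 649 ± 19.2 CPM in H1975 (0.85), and complex V gave 2185 ± 195 CPM in HCC827 and 1562 ± 29.5 CPM in H1975 (0.48). All members of a complex were summed, and in each complex every HCC827 library was above every H1975 library, which gave p = 0.1 in a two-sided exact permutation test, the smallest p that 3 against 3 samples allow. On ONT the log2 ratios were 0.30 for complex III and 0.58 for complex IV, again without overlap (exact permutation p = 0.1). For complexes I and V they were 0.07 and 0.13, and the lines overlapped (exact permutation p = 0.4 for each). Without its most counted member the ONT ratio of complex V was -0.06. The complex III sum counts both UQCRH and its copy UQCRHL, whose reads cannot be told apart, and was not tested without this pair. The complex I sum likewise counts NDUFC2 and NDUFC2-KCTD14, and the complex V sum ATP5MF and ATP5MF-PTCD1, which share exons. These sums were not tested without those pairs. Without UQCRHL, the median ONT log2 fold of the 8 other complex III members was 0.08, with 3 called higher and 2 lower. Scaled by library totals, the ONT ratios of complexes I, III and V turned to -0.49, -0.26 and -0.43, and that of complex IV was 0.02. The lowest HCC827 library was replicate 1 in every complex on Illumina and replicate 2 in every complex on ONT. NDUFA4 was summed with complex I, and the sums were not tested with it in complex IV. Its mean level was 224 CPM in HCC827 and 378 CPM in H1975 on ONT. On Illumina it was 44.2 CPM in HCC827 and 63.0 CPM in H1975.

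**Figure D2:**
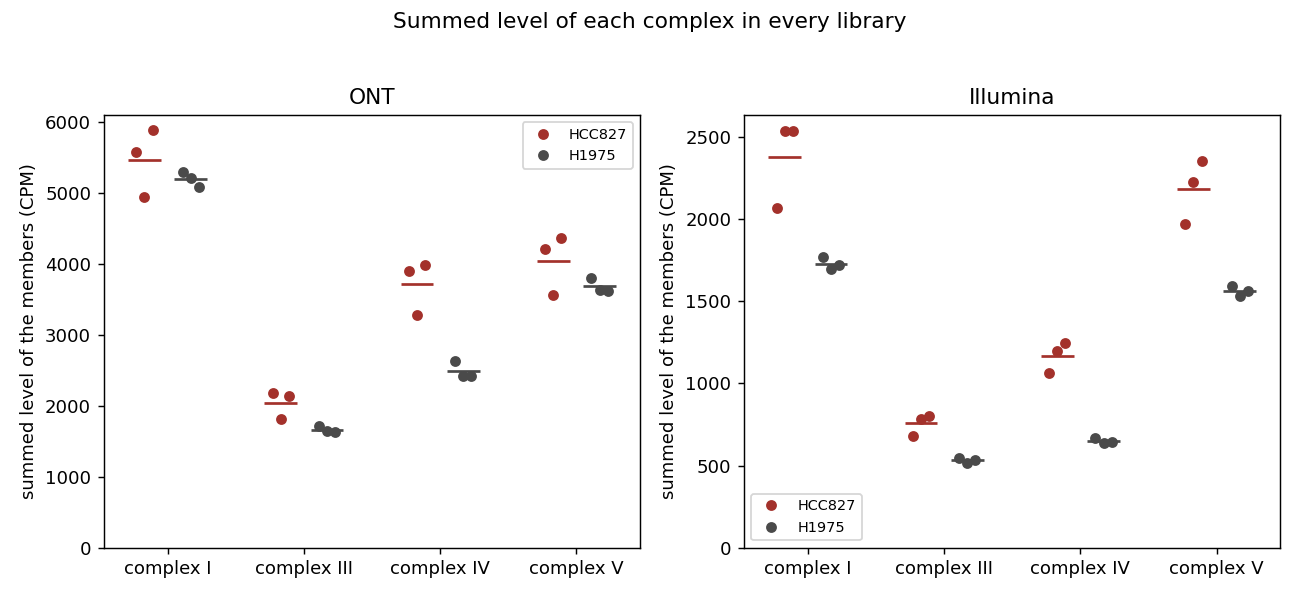
Summed level of the members of each complex in CPM (vertical axes, from 0) in every library of HCC827 (red) and H1975 (dark grey), on ONT and Illumina; bars are means. Complex IV, summed without NDUFA4, has the highest log2 ratio of HCC827 over H1975 on both platforms, 0.58 on ONT (0.02 by library totals) and 0.85 on Illumina.

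In complex I, 25 of 39 genes were higher and 4 lower in HCC827 on Illumina (median log2 fold 0.41), and 13 were higher and 8 lower on ONT (0.14). Over all genes tested, 36.1% were higher and 38% lower on Illumina, and 31.1% higher and 31.6% lower on ONT. The share of complex I called higher on ONT was thus near the background. The same background applies to the parts of each complex below. The catalytic core, which holds the flavin and the iron-sulfur centers, has 7 nuclear genes, NDUFV1, NDUFS1 and NDUFS8 among them. Of the 7, 6 were higher and none lower on Illumina, and 2 were higher and none lower on ONT. NDUFV1, whose protein binds NADH, was higher by 0.63 ± 0.13 on Illumina and 0.45 ± 0.15 on ONT (log2 fold ± standard error; adjusted p in edgeR 0.000546 and 0.0184). NDUFS8, an iron-sulfur subunit, was higher by 1.02 ± 0.15 and 0.78 ± 0.12. NDUFS1, the largest core subunit, had log2 folds of -0.02 on Illumina and -0.05 on ONT, neither of which passed.

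The 32 other genes of complex I ranged more widely, with 19 higher and 4 lower on Illumina and 11 higher and 8 lower on ONT. NDUFA9, an accessory subunit near the ubiquinone site, had the largest rise among them. It had 95.7, 139 and 129 CPM in HCC827, against 26.5, 26.8 and 26.8 CPM in H1975, on Illumina. On ONT it had 81.3, 78.0 and 108 CPM in HCC827, against 23.8, 24.8 and 22.0 CPM in H1975. The lines did not overlap on either platform, and the log2 folds were 2.18 ± 0.13 on Illumina and 1.92 ± 0.16 on ONT (edgeR adjusted p = 1.99e-09 and 2.56e-06). The share of all genes whose lines do not overlap was not counted. A lack of overlap, for this and later genes, therefore only describes the libraries. The gene lies on chromosome 12 (4649095 to 4694317, GRCh38), and of 10 other tested genes within 1 Mb, 5 were higher and 1 lower on Illumina, with a median of 0.48.

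NDUFA5, an accessory subunit of the matrix arm, fell furthest. On Illumina it had 18.9, 20.6 and 25.9 CPM in HCC827, against 60.2, 53.9 and 55.2 CPM in H1975. The ONT levels were 19.3, 16.5 and 27.8 CPM in HCC827, against 84.0, 80.3 and 80.1 CPM in H1975. The HCC827 libraries were all below the H1975 libraries, with log2 folds of -1.36 ± 0.12 and -1.94 ± 0.19 (edgeR adjusted p = 1.18e-07 and 8.07e-06). NDUFA6, a matrix-arm subunit of the LYR family, fell too, with -0.97 ± 0.10 on Illumina and -1.19 ± 0.17 on ONT. NDUFA4, NDUFB2 and these genes make up the 4 lower calls of complex I on Illumina, and all 4 were lower on ONT. NDUFA10 (1.31 ± 0.09 and 1.23 ± 0.14) and NDUFB11 (1.26 ± 0.12 and 1.01 ± 0.12), subunits of the membrane arm, were higher on both platforms.

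NDUFA4 and NDUFA4L2 encode related proteins, and NDUFA4L2 is known as a target of the hypoxia factor HIF1. They moved in opposite directions. NDUFA4L2 had 2.13, 2.10 and 2.44 CPM in HCC827 and 0.410, 0.544 and 0.771 CPM in H1975 on Illumina, a log2 fold of 1.97 ± 0.24. ONT libraries gave 12.6, 13.2 and 16.6 CPM in HCC827 and 6.46, 7.01 and 6.85 CPM in H1975, a log2 fold of 1.06 ± 0.15 (edgeR adjusted p = 3.67e-06 and 0.000144). NDUFA4 had log2 folds of -0.50 ± 0.10 and -0.76 ± 0.17 (0.000538 and 0.00274). NDUFA4L2 therefore took 4.69% of the counts of the pair in HCC827 and 0.891% in H1975 on Illumina, and 5.87% in HCC827 and 1.76% in H1975 on ONT. PacBio differed, with 12 counts of NDUFA4L2 and 2 of NDUFA4 in HCC827, and 5 and 0 in H1975. The exons of NDUFA4L2 overlap SHMT2 on the opposite strand. The sources used here do not give the strand setting of the counting, so the values of NDUFA4L2 are uncertain.

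NDUFV3, a small subunit of the NADH-binding arm known as a short and a long isoform, was the member with opposite calls. On Illumina it had 30.4, 37.8 and 31.3 CPM in HCC827, against 24.1, 24.1 and 24.3 CPM in H1975, a log2 fold of 0.44 ± 0.10 (edgeR adjusted p = 0.00125). On ONT it had 30.4, 26.4 and 27.1 CPM in HCC827, against 36.6, 34.5 and 35.5 CPM in H1975, a log2 fold of -0.35 ± 0.13 (edgeR adjusted p = 0.0368). Both gaps were free of overlap. The ONT call was lost without HCC827 replicate 3 or without any 1 of the 3 H1975 replicates. It was also lost with another scaling (RLE size factors, -0.33), without the filter on low counts (-0.37) and with a replicate block (-0.35). By library totals the Illumina fold was 0.084 and did not pass. Tested in 1 model over both platforms, the ONT line fold minus the Illumina line fold was -0.63 ± 0.17 (log2; edgeR adjusted p = 0.0255). It was the only member of 81 called in that test, against 7.16% of all genes, 5.03% with a higher and 2.13% with a lower line fold on ONT. Without H1975 ONT replicate 3 the difference was -0.64 and no longer passed (edgeR adjusted p = 0.06). Isoforms are not told apart by counts per gene.

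In complex III, 5 of 9 genes were higher and 2 lower in HCC827 on Illumina (median 0.56), and 4 were higher and 2 lower on ONT (0.26). Over all genes tested, 36.1% were higher and 38% lower on Illumina, and 31.1% higher and 31.6% lower on ONT. Without UQCRHL, a copy of UQCRH, the medians of the 8 other genes were 0.34 on Illumina and 0.08 on ONT. The core and redox subunits differed among themselves. UQCRC1 was higher by 0.72 ± 0.14 on Illumina and 0.41 ± 0.14 on ONT, whereas its partner UQCRC2 had 0.07 ± 0.09 and -0.38 ± 0.18 and did not pass (edgeR adjusted p = 0.52 and 0.0874). UQCRFS1, the Rieske iron-sulfur protein, was higher on Illumina (0.56 ± 0.09) and had 0.26 ± 0.15 on ONT (edgeR adjusted p = 0.149). UQCR11 (-0.38 ± 0.09 and -0.49 ± 0.14) and UQCRB (-0.49 ± 0.11 and -0.60 ± 0.12), small subunits, were lower on both.

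UQCRH, the hinge subunit that helps cytochrome c bind, had the highest fold of the complex apart from its copy. It had 113, 108 and 121 CPM in HCC827, against 43.2, 39.6 and 40.6 CPM in H1975, on Illumina. The ONT levels were 402, 322 and 377 CPM in HCC827, against 163, 147 and 149 CPM in H1975. No HCC827 library came near the H1975 libraries, and the log2 folds were 1.47 ± 0.09 and 1.26 ± 0.13 (edgeR adjusted p = 4.52e-09 and 1.23e-05). Its neighbourhood on chromosome 1 (46303698 to 46316776) moved the same way: of 33 other tested genes within 1 Mb, 28 were higher and 1 lower on Illumina, with a median of 1.44. UQCRHL, a near-identical copy on the same chromosome (15807169 to 15809348), had log2 folds of 1.60 ± 0.09 and 1.26 ± 0.13. It took 37.6% of the counts of the pair in HCC827 and 36.0% in H1975 on Illumina, and 46.2% in each line on ONT, and its reads cannot be told from those of UQCRH. UQCRQ, a small subunit near the ubiquinone sites, had 63.9, 68.4 and 74.4 CPM in HCC827, against 42.6, 37.5 and 40.7 CPM in H1975, on Illumina. ONT libraries gave 488, 409.9 and 456 CPM in HCC827, against 319, 311 and 308 CPM in H1975. Its log2 folds were 0.77 ± 0.10 and 0.53 ± 0.12 (edgeR adjusted p = 5.15e-06 and 0.00237), and the lines did not overlap, although the ONT fold was -0.03 by library totals.

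In complex IV the widely expressed subunits and the tissue forms are described apart. Of the tissue forms only COX8C and COX6B2 were called, and both were rare, so the classes as such cannot be compared. Of the 10 widely expressed subunit genes, 8 were higher and 1 lower on Illumina (median 0.97), and 6 were higher and 1 lower on ONT (0.74). Over all genes tested, 36.1% were higher and 38% lower on Illumina, and 31.1% higher and 31.6% lower on ONT. The 10 leave out NDUFA4, whose protein is known to sit in this complex and which was lower on both platforms (-0.50 and -0.76). COX5B, which holds a zinc ion on the matrix side, led them. On Illumina it had 121, 191 and 161 CPM in HCC827, against 55.5, 51.6 and 52.8 CPM in H1975. On ONT it had 604, 638 and 683 CPM in HCC827, against 291, 274 and 274 CPM in H1975. The lines did not overlap, with log2 folds of 1.56 ± 0.14 and 1.20 ± 0.11 (edgeR adjusted p = 1.27e-07 and 7.2e-06). Its neighbours on chromosome 2 (97646062 to 97648383) were mixed: of 18 tested within 1 Mb, 7 were higher and 4 lower, with a median of 0.14.

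The other widely expressed subunits that rose on both platforms were COX6B1 (1.34 ± 0.10 on Illumina and 1.15 ± 0.12 on ONT), COX8A (1.14 ± 0.10 and 0.82 ± 0.14), COX4I1 (1.09 ± 0.10 and 0.87 ± 0.11), COX7A2 (0.97 ± 0.10 and 0.80 ± 0.13) and COX6A1 (0.97 ± 0.09 and 0.68 ± 0.14). Of the widely expressed subunit genes counted here, COX6C alone was called lower, and it fell by 1.01 on Illumina and by 1.17 on ONT (log2, edgeR adjusted p = 7.27e-07 and 2.87e-05). COX7B had 0.24 ± 0.14 and -0.05 ± 0.16 and passed on neither. COX4I1 takes part in the regulation of the enzyme by ATP, and COX6A1 and COX7A2 are the non-muscle forms of their subunits. COX7A2L, which helps join complexes III and IV, was higher on Illumina by 0.50 ± 0.09 and had 0.07 ± 0.17 on ONT.

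COX8C and COX6B2, forms known from testis, were rare in both lines and lower in HCC827 than in H1975. COX8C had 3 Illumina counts in HCC827 and 93 in H1975. The ratio of HCC827 to H1975 after scaling was 0.0553, with an exact 95% interval of 0.0112 to 0.167 that covers counting error only. The ONT levels were 0.409, 0.307 and 0.268 CPM in HCC827 and 3.43, 3.46 and 3.15 CPM in H1975, from 83 and 1039 counts, a log2 fold of -3.33 ± 0.21 (edgeR adjusted p = 4.38e-07). COX6B2, also known from sperm, had 0.374, 0.350 and 0.203 CPM in HCC827 and 1.09, 0.827 and 0.611 CPM in H1975 on Illumina. ONT libraries gave 0.291, 0.142 and 0.240 CPM in HCC827 and 0.899, 0.943 and 0.784 CPM in H1975. Its log2 folds were -1.47 ± 0.36 and -1.95 ± 0.28 (edgeR adjusted p = 0.00196 and 0.000127), and the lines overlapped on neither platform. Both genes stayed below their widely expressed partners: COX8C took 0.0709% of the counts of COX8C and COX8A in HCC827 and 1.23% in H1975 on ONT, and COX6B2 took 0.0790% of its pair in HCC827 and 0.677% in H1975.

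The remaining tissue forms had too few counts for a line test on Illumina. COX7B2, a testis form, had 4 Illumina counts in HCC827 and 23 in H1975, and 17 ONT counts in HCC827 and 40 in H1975, with an ONT log2 fold of -0.90 ± 0.50 that did not pass (edgeR adjusted p = 0.135). COX4I2, the form known from lung and responsive to oxygen, had 0 Illumina counts in HCC827 and 3 in H1975, and 16 ONT counts in HCC827 and 28 in H1975. COX7A1, a form of heart and skeletal muscle, had 9 Illumina counts in HCC827 and 7 in H1975. COX6A2, the muscle partner of COX6A1, had 0 counts in all 18 libraries, which allows up to 3 counts per line, or 0.0412 CPM in HCC827 and 0.0240 CPM in H1975 on Illumina (counting error only).

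**Figure D3:**
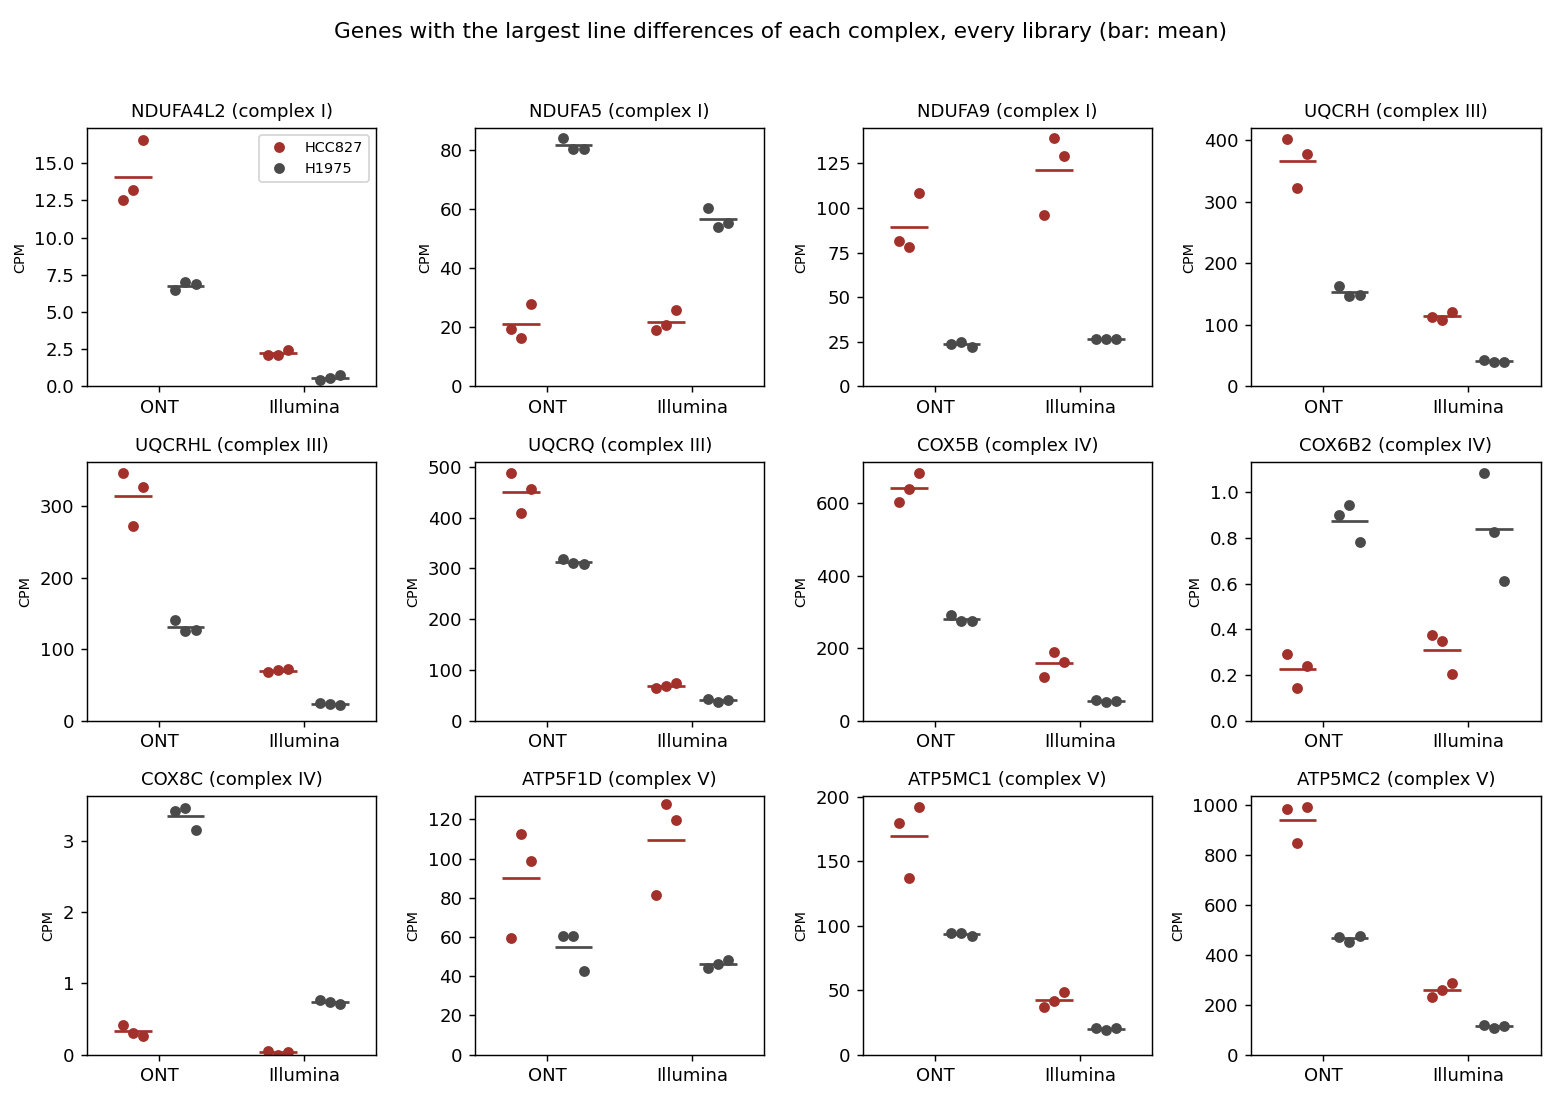
CPM (vertical axes, from 0) of the 12 genes with the largest Illumina folds of their complex among those called on both platforms, in every library of HCC827 (red) and H1975 (dark grey), on ONT and Illumina; bars are means. NDUFA5, COX6B2 and COX8C are lower in every HCC827 library, and the lines overlap only for ATP5F1D on ONT, where HCC827 replicate 1 lies at 59.5 CPM.

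In complex V, 13 of 19 genes were higher and 4 lower in HCC827 on Illumina (median 0.50), and 7 were higher and 4 lower on ONT (0.23). Over all genes tested, 36.1% were higher and 38% lower on Illumina, and 31.1% higher and 31.6% lower on ONT. The share of complex V called higher on ONT was thus near the background. The rotor ring of 1 kind of subunit, c, is made from 3 genes, ATP5MC1, ATP5MC2 and ATP5MC3, whose mature proteins are the same. All 3 were higher on both platforms. ATP5MC2 had 229.8, 257 and 285 CPM in HCC827, against 119, 105 and 116 CPM in H1975, on Illumina. On ONT it had 982, 847 and 990.0 CPM in HCC827, against 473, 449 and 476 CPM in H1975. The log2 folds were 1.19 ± 0.11 and 1.01 ± 0.12 (edgeR adjusted p = 1.62e-07 and 2.73e-05). ATP5MC1 had 37.0, 41.8 and 48.3 CPM in HCC827, against 20.3, 18.8 and 20.3 CPM in H1975, on Illumina. The ONT levels were 179, 137 and 192 CPM in HCC827, against 94.4, 93.9 and 92.2 CPM in H1975, and its log2 folds were 1.10 ± 0.11 and 0.86 ± 0.14 (edgeR adjusted p = 4.82e-07 and 0.00041). The lines did not overlap for either gene. ATP5MC3 followed with 0.78 ± 0.10 and 0.46 ± 0.16.

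The F1 head, where ATP is made, had 3 genes higher and 2 lower on Illumina, and 1 higher and 2 lower on ONT. ATP5F1A and ATP5F1B, the alpha and beta subunits that form the catalytic sites, were higher on Illumina (0.50 ± 0.09 and 0.45 ± 0.11) and had 0.23 ± 0.13 and 0.18 ± 0.14 on ONT, which did not pass. The central stalk was uneven: ATP5F1D (delta) was higher, and ATP5F1C (gamma) and ATP5F1E (epsilon) were lower on both platforms. ATP5F1D had 81.2, 128 and 119 CPM in HCC827, against 44.4, 46.3 and 48.3 CPM in H1975, on Illumina, a log2 fold of 1.23 ± 0.14 (edgeR adjusted p = 1.97e-06). ONT libraries gave 59.5, 112 and 98.9 CPM in HCC827, against 60.6, 60.8 and 42.7 CPM in H1975, a log2 fold of 0.72 ± 0.23 (edgeR adjusted p = 0.0168). The lines overlapped on ONT, and without H1975 replicate 3 the ONT fold was 0.57 and no longer passed. ATP5F1C had -0.46 ± 0.10 on Illumina and -0.86 ± 0.22 on ONT, and ATP5F1E had -0.41 ± 0.10 and -0.63 ± 0.11 (edgeR adjusted p = 0.0016 and 0.000556). ATP5F1E overlaps TUBB1 on the opposite strand.

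The peripheral stalk, which holds the head still, had 3 of 4 genes higher on Illumina and none called on ONT, with folds on Illumina of 0.69 ± 0.10 for ATP5PB, 0.51 ± 0.10 for ATP5PO and 0.35 ± 0.09 for ATP5PD. ATP5PF had -0.04 ± 0.10. Among the small membrane subunits, ATP5ME (0.70 ± 0.09 and 0.40 ± 0.12) and ATP5MG (0.54 ± 0.10 and 0.31 ± 0.12) were higher on both platforms, the ONT call of ATP5MG being close to the threshold (edgeR adjusted p = 0.0496). It was lost when any 1 library other than HCC827 replicate 2 was left out, with folds of 0.26 to 0.32. ATP5MJ (-0.42 ± 0.10 and -0.85 ± 0.12) and ATP5MK (-0.58 ± 0.12 and -0.78 ± 0.15), small subunits found with dimers of the synthase, were lower on both. ATP5MF was higher on Illumina (0.41 ± 0.10) and had -0.08 ± 0.14 on ONT.

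Some members share reads with a partner and their separate values are uncertain. ATP5MF-PTCD1 and NDUFC2-KCTD14 are readthrough genes that contain the exons of ATP5MF and NDUFC2. ATP5MF-PTCD1 took 58.1% of the counts of its pair in HCC827 and 58.9% in H1975 on Illumina, and NDUFC2-KCTD14 took 53.9% in HCC827 and 51.2% in H1975. On ONT ATP5MF-PTCD1 took 51.5% in HCC827 and 51.8% in H1975, and NDUFC2-KCTD14 took 51.4% in HCC827 and 50.5% in H1975. ATP5MGL, a copy of ATP5MG, took 2.70% of its pair in HCC827 and 2.14% in H1975 on ONT. Without both readthrough genes, UQCRHL and ATP5MGL, 62 members passed on Illumina and 44 on ONT. Exons of 27 members overlap another gene on the same strand and those of 32 members overlap one on the opposite strand.

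The Illumina line fold was higher than the ONT line fold in 79 of 80 members tested on both (98.8%), against 55.6% of all genes tested on both. The median of the difference was 0.24 for the members and 0.07 for all genes (log2). Fitted in 1 model over both platforms, 13 of 81 members had a higher line fold on ONT than on Illumina, and the median difference, ONT minus Illumina, was -0.08 for the members, 0.11 for all genes and 0.13 for protein-coding genes. That count moved with single libraries: it was 38 of 80 without HCC827 ONT replicate 2 (median -0.0076), 37 of 81 without HCC827 Illumina replicate 3 (-0.02) and 2 of 81 without H1975 Illumina replicate 1 (-0.24) or without H1975 Illumina replicate 3 (-0.20). Without any other 1 library it was 5 to 12, and the median stayed below 0 in each of these fits.

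Between platforms nearly all members had a higher level on ONT in the joint fit. Of 81 members tested, 79 were higher on ONT than on Illumina and none was lower (edgeR, adjusted p below 0.05), against 83.4% of all genes called, 44.2% higher and 39.1% lower. The median log2 ratio of ONT over Illumina was 3.09 for the members and 0.12 for all genes. Scaled by library totals the median of all genes moved by -1.48, and 64 members were higher and 9 lower, with a median of 1.60. Relative to the median of all genes the members stood at 2.97 by trimmed mean and at 2.96 by library totals. ATP5F1E had the highest ratio, 4.78 ± 0.09, with 459.9, 410.1 and 449.9 CPM in HCC827 and 708, 668 and 669.6 CPM in H1975 on ONT, against 46.7, 44.6 and 54.3 CPM in HCC827 and 67.6, 63.5 and 63.7 CPM in H1975 on Illumina. ATP5MGL (4.71 ± 0.18) and NDUFA3 (4.69 ± 0.11), a single-helix subunit of complex I, followed. CPM are scaled within each platform and ratios in the joint fit, so a ratio cannot be read from the CPM. NDUFA9 had a ratio of 1.18 ± 0.10, although its mean level in HCC827 was 89.2 CPM on ONT and 121 CPM on Illumina. Among the lowest ratios of called members were those of ATP5F1B (0.38 ± 0.09) and NDUFS1 (0.46 ± 0.10). The call of ATP5F1B was lost without any 1 of the 3 H1975 Illumina libraries, with ratios of 0.21 to 0.23. UQCRC2 (0.01) and ATP5F1A (-0.07) did not pass.

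These transcripts are short. The canonical transcript had a median length of 740.5 nt over the members and 2892 nt over protein-coding genes, and 54 of 84 members (64.3%) were under 1000 nt, against 10.3% of protein-coding genes. Across the 81 tested members the ratio of ONT to Illumina fell with log2 length, with Pearson's r = -0.55 and Spearman's rho = -0.45. Across 16194 protein-coding genes the values were -0.44 and -0.50. All points share the same libraries, and genes are not independent replicates. Members under 600 nt had a median log2 ratio of 3.46, against 2.83 for protein-coding genes of that length. Members of 2000 nt or longer had a median of 1.73, against -0.73 for protein-coding genes of that length, so members stood above other genes in this length class as well. RNA input, library preparation, read length and sequencer change together between platforms and cannot be told apart.

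**Figure D4:**
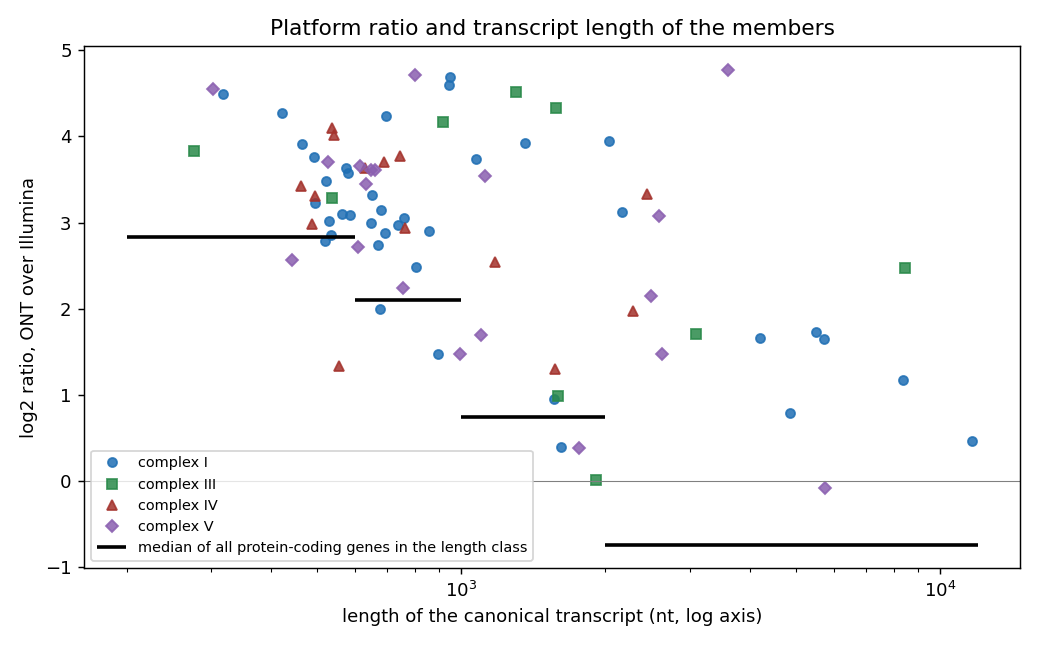
Log2 ratio of ONT over Illumina (vertical axis) against canonical transcript length in nt (horizontal log axis) for 81 members, with symbols for the complexes; black bars give the median of all protein-coding genes in each length class. The median ratio is 3.46 for members under 600 nt, and that of members of 2000 nt or longer, 1.73, lies above the bar of -0.73; the highest single ratio, 4.78 for ATP5F1E, belongs to the longest class.

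Many of these genes have pseudogenes, which are copies of the transcript elsewhere in the genome that can take reads of the parent. GENCODE names 173 pseudogenes after 45 of the members. They took 14.3% ± 0.370 of the combined counts in HCC827 and 16.2% ± 0.0708 in H1975 on ONT (SD, n = 3 each), and 6.71% ± 0.372 in HCC827 and 6.99% ± 0.189 in H1975 on Illumina. PacBio had 0 counts on them, beside 201 parent counts in HCC827 and 117 in H1975. Over the 6 libraries of a platform, the single pseudogene of NDUFV2 took 49.7% on ONT and 48.5% on Illumina. The shares for COX6A1 were 49.2% and 40.6%, and for UQCRFS1 48.2% and 21.7%. For NDUFA5, the member that fell furthest in complex I, they were 37.9% and 9.17%, and for NDUFA4 37.7% and 28.5%. The shares were low for COX5B (0.145% and 0.323%), UQCRH (0.471% and 2.19%) and NDUFA9 (0.871% and 4.03%). UQCRHL, the near-identical copy of UQCRH, is annotated as protein-coding and is not among the pseudogenes. It took 46.2% of the counts of that pair in each line on ONT. On Illumina it took 37.6% in HCC827 and 36.0% in H1975. The part of these copies in the line differences was not tested.

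**Figure D5:**
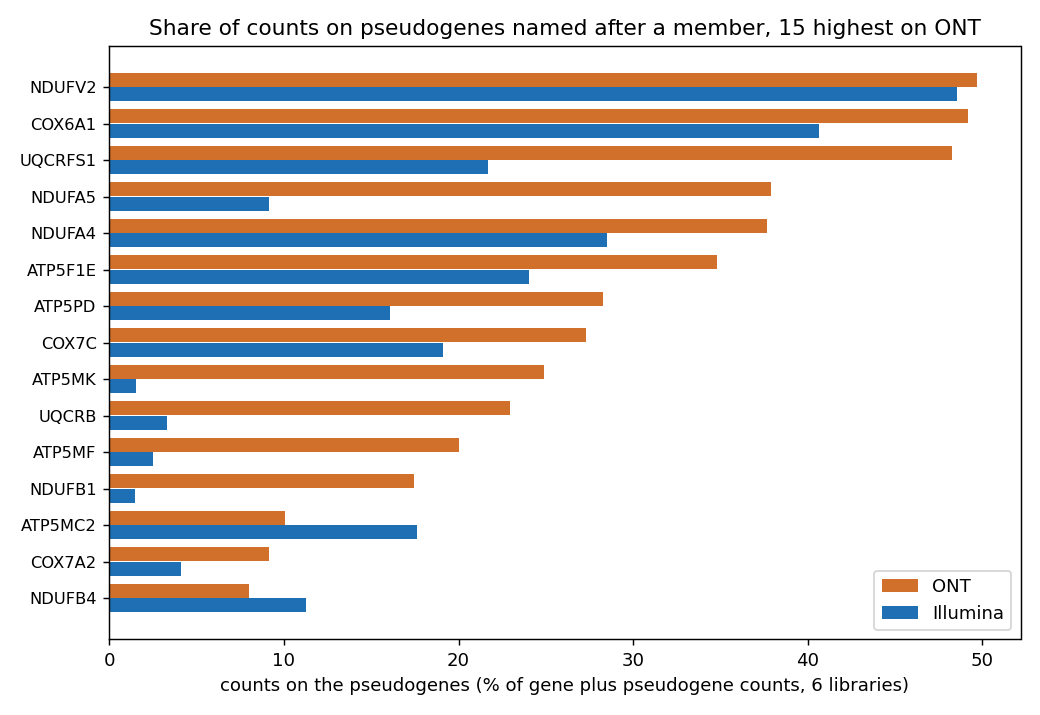
Share of counts (percent of parent plus pseudogene counts over 6 libraries, horizontal axis from 0) that fell on pseudogenes, for the 15 members with the highest ONT share, on ONT (orange) and Illumina (blue). NDUFV2, COX6A1 and UQCRFS1 have ONT shares of 48.2% to 49.7%.

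PacBio held few counts of these genes. They summed to 124, 103 and 172 counts in HCC827 libraries and to 85, 98 and 79 in H1975 libraries, or 0.228%, 0.252% and 0.455% of gene counts in HCC827 and 0.206%, 0.185% and 0.157% in H1975. HCC827 replicate 3, whose file header alone names poly(A), had the highest share, with an exact 95% interval of 0.390% to 0.528%, and it stood apart from the other HCC827 libraries. Of the 84 genes, 67 had at least 1 count and 7 had enough to test between the lines. None of the 7 passed in edgeR, against 3.34% of all genes tested, 1.54% higher and 1.8% lower in HCC827. Of the 7, 1 had an unadjusted p below 0.05 in edgeR. That gene, ATP5PB of the peripheral stalk, had 8, 7 and 7 counts in HCC827 and 4, 3 and 3 in H1975, a log2 fold of 1.14 ± 0.39 (edgeR adjusted p = 0.172). DESeq2 and limma-voom also called none. The other 77 genes had too few counts for a line test at this depth. Summed over members in the 2 PacBio samples per line, the log2 ratio of HCC827 over H1975 was 0.73 for complex I, 0.37 for complex III, 1.74 for complex IV and 0.77 for complex V. In HCC827, 1 of the 2 samples was replicate 3 alone, and the samples lay far apart. Complex I summed to 2327 and 3623 CPM in HCC827 and to 1596 and 1987 CPM in H1975. Complex IV summed to 392 and 881 CPM in HCC827 and to 188 and 194 CPM in H1975. Exact two-sided permutation p values were 0.667 for complex III and 0.333 for each of the others, the smallest that 2 against 2 samples allow.

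The PacBio libraries were size-selected near 2 kb, and the members' counts were spread differently over lengths. Members of 2000 nt or longer gave 33.9% of the members' PacBio counts, 16.6% of their ONT counts and 22.9% of their Illumina counts. Members under 600 nt gave 15.7%, 32.4% and 21.4% in the same order of platforms. Of 80 members tested between PacBio and Illumina, 69 passed, 1 higher and 68 lower on PacBio (edgeR, adjusted p below 0.05), against 33.5% of all genes called, 7.35% higher and 26.2% lower. The median over all genes in that fit was -3.89 in edgeR and 0.27 in limma-voom, so the ratios are not given as sizes.

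Neighbouring genes were looked at within 1 Mb of the 12 genes with the largest folds, a window chosen after the values were seen. Of all genes tested on Illumina, 36.1% were higher and 38% lower. Around NDUFA5 the 2 other tested genes were both lower on Illumina, with a median of -0.94. Around ATP5MC1 25 of 33 were higher and 6 lower (0.94), and around COX8C 5 of 19 were higher and 12 lower (-0.68). UQCRQ went the other way from its surroundings, where 3 of 17 genes were higher and 8 lower (-0.22). Copy number of these regions was not tested.

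Genes that work beside these subunits were counted from lists, each with calls in both directions. Of all genes tested, 36.1% were higher and 38% lower on Illumina, and 31.1% higher and 31.6% lower on ONT. Of 9 genes of complex II and the electron carriers, 4 were higher and 3 lower on Illumina, and 2 higher and 3 lower on ONT. CYC1, the heme subunit of complex III, was higher by 1.53 ± 0.12 on Illumina and 1.01 ± 0.19 on ONT, whereas CYCS, cytochrome c itself, was lower (-1.09 ± 0.09 and -1.28 ± 0.15). Of 44 assembly factors, 23 were higher and 14 lower on Illumina, and 14 higher and 15 lower on ONT. TMEM70, needed to build complex V, rose by 1.76 ± 0.11 and 1.47 ± 0.19, and HIGD1A, a small factor of complexes III and IV, fell, with log2 folds of -1.37 ± 0.10 and -1.88 ± 0.17. SURF1, an assembly factor of complex IV, was higher by 1.33 ± 0.12 and 1.00 ± 0.14. Of 14 genes of the citric acid cycle, which supplies NADH, 8 were higher and 2 lower on Illumina, and 3 were higher and 3 lower on ONT. Of 11 tested regulators of mitochondrial genes, 3 were higher and 4 lower on Illumina. TFAM, which packs mitochondrial DNA, was lower by both platforms, with -0.85 ± 0.10 and -0.93 ± 0.13.

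The mitochondrial genome encodes 13 subunits of the same complexes. On Illumina 9 of the 13 were higher in HCC827 and none lower, against 36.1% higher and 38% lower of all genes. Their median log2 fold was 0.49, close to the 0.48 of the nuclear members. Both medians rest on the trimmed-mean scaling. By library totals the median of all genes moved by -0.35, and that of the nuclear members was 0.12. Folds of the 13 genes by library totals are not given here. MT-ND3 of complex I had the highest fold, 1.90 ± 0.15, followed by MT-CO2 of complex IV with 1.33 ± 0.11 (edgeR adjusted p = 4.88e-08 and 8.76e-08), while MT-ND4 had -0.02 ± 0.14. All 13 genes are listed at 0 in every ONT and PacBio library, so no comparison could be made there.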

How the data were processed

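The 18 files hold 1 table of counts per library, as deposited by the authors: whole numbers of reads, or of clustered PacBio sequences per the file headers, assigned to genes. Per the submitters' processing notes, minimap2 2.17, featureCounts and GRCh38 were used (annotation, strand setting and featureCounts version: not given in the sources used). Synthetic spike-in transcripts were left out.

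Lines were compared within each platform with edgeR 4.0.16 in R 4.3.3 (limma 3.58.1): trimmed-mean scaling, edgeR's filter on low counts, a robust quasi-likelihood fit and Benjamini-Hochberg adjustment over all genes tested, with a threshold of 0.05. CPM values are counts over the effective library sizes of each platform's own fit. Platform ratios rest on the sizes of the joint fits, so the 2 scales differ. Platforms were compared in joint fits with line, platform and their interaction. Same-numbered ONT and Illumina libraries come from 1 RNA sample per the labels, and their deviations from group means correlated with r of 0.02 to 0.56. Close PacBio pairs were summed. Sums per complex were compared with two-sided exact permutation tests. The alternatives were other scalings, no filter, DESeq2 1.42.0, limma-voom, a replicate block and leaving out each library. Tables and figures used Python 3.11.15 with pandas 2.3.3, scipy 1.17.1 and matplotlib 3.10.9. The fits were also run on simulated counts with the same set spread for every gene and library. The spread of the real libraries differed between platforms and lines, so that run cannot show how the fits perform on them.

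Genes given library by library were the 3 with the largest Illumina folds of each complex among those called alike on both platforms, those called in opposite directions, the 3 highest and 3 lowest platform ratios, and the tissue forms with their partners. The values of 1 member are not reported here. Others are given by fold and count, and those named beyond this rule were chosen after their values were seen. The members and lists were chosen with earlier results of these data known. Depth was lowest in PacBio, and PCR copies cannot be told from separate molecules, so that floors and intervals reflect counting error alone.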

Additional observations from a re-analysis of the deposited data

Results flagged for a closer look

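NDUFV3 is set out for a closer look because its line difference was tested between platforms and differed: the ONT line fold minus the Illumina line fold was -0.63 ± 0.17 on the log2 scale (edgeR adjusted p = 0.0255). Over the other settings and left-out libraries it ranged from -0.99 to -0.59, and it did not pass with no filter on low counts (edgeR adjusted p = 0.0561) or without H1975 ONT replicate 3 (0.06). The HCC827 libraries lay below the H1975 libraries on ONT and above them on Illumina.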

How the results depend on the processing

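The counts of members called kept within 1.5 times under every alternative run for the Illumina and ONT line comparisons and for ONT over Illumina. These counts ignore direction, which did change. By library totals 30 members were higher and 23 lower on Illumina, and 14 higher and 49 lower on ONT. The main fits gave 52 and 13 on Illumina and 30 and 17 on ONT. Leaving out 1 library at a time gave 62 to 68 members on Illumina, 34 to 58 on ONT, 0 to 0 on PacBio and 77 to 80 for ONT over Illumina. The test of the line fold between platforms called 0 to 3 members in those fits, 28 with library totals and 0 without the filter on low counts. On PacBio 1 member was called without that filter. Scaling by library totals gave summed log2 ratios of 0.10, 0.15, 0.49 and 0.12 for complexes I, III, IV and V on Illumina and of -0.49, -0.26, 0.016 and -0.43 on ONT. Without the member of highest count, complex V on ONT gave -0.055 and complex III on PacBio 1.27. The same scaling reversed COX7B (-0.12) on Illumina, ATP5F1B (-0.38), ATP5MG (-0.25) and UQCRQ (-0.032) on ONT, and the ONT over Illumina ratios of ATP5F1B (-1.11) and NDUFS1 (-1.04); each line fold moves with the shift of all genes that this scaling brings. Leaving out 1 library, folds that had not passed changed sign: NDUFS1 on Illumina ranged from -0.085 to 0.028, and on ONT ATP5MF from -0.15 to 0.067, ATP5MF-PTCD1 from -0.16 to 0.048, COX7B from -0.17 to 0.12 and NDUFS1 from -0.14 to 0.13. On PacBio ATP5F1B ranged from -0.43 to 0.58, the lowest without HCC827 replicate 3. Over all genes PacBio called 63, against 0 to 365 with 1 library left out, 475 without the filter, 206 with all 6 libraries, 15 in DESeq2 and 34 in limma-voom. Replicate numbers did not pair the lines: deviations of same-numbered libraries correlated with r of -0.54 to 0.24. With a replicate block 66 members passed on Illumina, 43 on ONT and 79 for ONT over Illumina. PacBio depth limits its line test to 7 members.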

Other observations

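COX19, a copper-handling assembly factor of complex IV, was called in opposite directions, with log2 folds of HCC827 over H1975 of 1.63 ± 0.13 on Illumina and -0.92 ± 0.14 on ONT (edgeR adjusted p = 3.51e-08 and 0.000221). ESRRA, a nuclear receptor that drives mitochondrial genes, had 1.03 ± 0.09 on Illumina and 0.18 ± 0.15 on ONT (edgeR adjusted p = 1.1e-07 and 0.317). The line fold on ONT minus that on Illumina was -2.39 ± 0.20 for COX19 and -0.69 ± 0.18 for ESRRA (edgeR adjusted p = 2.2e-07 and 0.0237). The ESRRA call was lost without HCC827 Illumina replicate 3 (-0.64, adjusted p = 0.0713). IDH3G and IDH3A, subunits of the same citric acid cycle enzyme, went opposite ways on both platforms, with 1.92 ± 0.13 and 1.53 ± 0.13 for IDH3G and -1.14 ± 0.10 and -1.53 ± 0.23 for IDH3A. These genes were chosen after their values were seen.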
